A study of Homo sapiens with 18 samples.

Results

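Small nucleolar RNAs (snoRNAs) and small Cajal body RNAs (scaRNAs) are short, stable RNAs that guide chemical modification of other RNAs. Every probe set whose single platform symbol starts with SNORD, SNORA or SCARNA was taken, which gave 198 of the 33297 probe sets on the array. They comprised 115 SNORD, 64 SNORA and 19 SCARNA probe sets under 192 symbols. The arrays were Affymetrix Human Gene 1.0 ST arrays of the H1 human embryonic stem cell line, kept pluripotent or grown for 6 days as embryoid bodies. Cells carried a lentivirus with an shRNA against KBTBD8, a lentivirus with a control shRNA, or no virus (untransduced). The 6 groups were embryoid bodies with KBTBD8 shRNA, with control shRNA and untransduced, and pluripotent cells with KBTBD8 shRNA, with control shRNA and untransduced, with 3 arrays each. The pluripotent cultures were feeder-free (Matrigel, mTeSR1 medium), and the embryoid bodies formed in AggreWell plates in APEL medium. All groups thus come from 1 cell line, and every shRNA group, controls included, was transduced. KBTBD8 encodes a substrate adaptor of a cullin ubiquitin ligase, and the study asked what its loss does to gene expression in pluripotent and differentiating cells.

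SNORD RNAs carry the box C/D motifs and guide methylation of riboses in ribosomal RNA. SNORA RNAs carry the box H/ACA motifs and guide conversion of uridine to pseudouridine. SCARNA RNAs reside in Cajal bodies, where they guide modification of the spliceosomal small nuclear RNAs. In human cells most of these RNAs are cut from introns of longer host transcripts, some of which encode ribosomal proteins while others (GAS5, ZFAS1 and the SNHG genes) encode no protein. A few, such as SNORD13 and the SNORD14 family, act in cleavage of the ribosomal RNA precursor rather than only in its modification. The imprinted SNORD113 to SNORD116 families lie in tandem arrays on chromosomes 14 and 15 and have no established ribosomal RNA target.

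Of the 198 probe sets, 140 (75 SNORD, 49 SNORA, 16 SCARNA) lay above their array's 40th percentile on at least 3 of the 18 arrays and were tested. That is 70.71% of the class, against 77.13% of all probe sets with 1 symbol. Among the 58 that were not tested, 50 exceeded the percentile on 0 arrays and 8 on 1 or 2. Just inside the limit, SNORA46 exceeded it on 3 arrays and read 4.70 to 5.91 log2 units over the 18 arrays, and just outside it SNORA29 exceeded it on 2 and read 3.86 to 5.49. The untested set held all 20 SNORD115 and all 4 SNORD114 probe sets, 1 of 2 SNORD113 and 7 of 20 SNORD116 probe sets. Because a probe set can pass through the group where it is high, counts are also given for the 91 that exceeded the percentile on all 18 arrays. Sibling copies share probes or sequence (SNORD14, SNORD59, SNORD38, SNORD116, SNORA15, SNORA10, SNORA71, and SCARNA9 with SCARNA9L), so their signals may not be separable. The paired SNORA10 probe sets, for example, gave identical values on every array.

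Only the genes that hold these RNAs have sequence in the reference tables used here, and 6 of their start sites are shown because many of the members with large differences between transduced and untransduced cells lie in these genes. Each line gives 80 bases before and 20 bases from the annotated start (RefSeq, GRCh38.p14), 5′ to 3′ on the gene's strand. Capitals mark the unbroken run of C and T that begins with C at the annotated start, the form of the terminal oligopyrimidine starts that many snoRNA host genes and ribosomal protein genes share. ZFAS1, which holds SNORD12C, lies at chr20:49278562-49278661 on the plus strand, and SNHG19, which holds SNORD60, at chr16:2155339-2155438 on the minus strand. SNHG5 (SNORD50A and SNORD50B) lies at chr6:85678714-85678813, SNHG1 (SNORD28 and SNORD30) at chr11:62855866-62855965, HSPA8 (SNORD14C and SNORD14E) at chr11:123062117-123062216 and GAS5 (SNORD44, SNORD74, SNORD75, SNORD78, SNORD79 and SNORD81) at chr1:173869026-173869125, all on the minus strand.
ZFAS1: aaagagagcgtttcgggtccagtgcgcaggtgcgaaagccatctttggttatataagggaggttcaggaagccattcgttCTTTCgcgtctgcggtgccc
SNHG19: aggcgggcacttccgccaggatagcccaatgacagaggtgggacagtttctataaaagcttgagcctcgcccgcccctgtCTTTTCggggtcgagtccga
SNHG5: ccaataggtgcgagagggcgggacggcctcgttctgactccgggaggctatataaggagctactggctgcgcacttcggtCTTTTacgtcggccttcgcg
SNHG1: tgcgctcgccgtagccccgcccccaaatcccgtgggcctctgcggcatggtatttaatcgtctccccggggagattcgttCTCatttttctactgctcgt
HSPA8: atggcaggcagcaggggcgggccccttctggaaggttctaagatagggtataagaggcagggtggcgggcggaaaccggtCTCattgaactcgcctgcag
GAS5: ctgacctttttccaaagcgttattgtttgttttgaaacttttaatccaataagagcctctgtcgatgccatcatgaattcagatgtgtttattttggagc
The run was 6 bases long at SNHG19, 5 at ZFAS1 and SNHG5, and 3 at SNHG1 and HSPA8, and GAS5 had none at this start. A run of at least 5, searched on the gene's own strand only, stood at 22 of the 70 starts of holding genes with a promoter sequence (31.43%), against 1104 of 27305 starts in the table (4.04%). This describes the annotated starts and says nothing of how they are used in these cells.

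KBTBD8 itself averaged 5.04 ± 0.12 log2 units in pluripotent cells with KBTBD8 shRNA (SD, n = 2), against 6.84 ± 0.39 with control shRNA and 6.32 ± 0.25 in untransduced cells (SD, n = 3 each). In embryoid bodies it averaged 4.76 ± 0.15 with KBTBD8 shRNA (SD, n = 2), 4.75 ± 0.31 with control shRNA and 4.56 ± 0.50 in untransduced bodies (SD, n = 3 each), so no reduction was measured there. These levels lay near the 25th percentile of the embryoid body arrays (4.36 to 4.57), where a reduction could hardly be seen. Replicate 2 of the KBTBD8 shRNA groups went against its label in both states. Over the tested members, the array labelled embryoid body correlated best with the pluripotent KBTBD8 shRNA mean (r = 0.982, against 0.912 with its own group), and the array labelled pluripotent with the embryoid body KBTBD8 shRNA mean (r = 0.977, against 0.899). Both were left out of the main fit and are read apart, so these 2 groups have 2 arrays each, and values with all 18 arrays as labelled stand beside the results. Pluripotent untransduced replicate 1 also stood apart over the members, nearest to the control shRNA mean (r = 0.962, against 0.919 with its own group). The tissue labels held on the other arrays by the mean of 7 pluripotency genes. It was 8.95 to 9.08 (KBTBD8 shRNA), 8.53 to 8.56 (control shRNA) and 7.43 to 7.60 (untransduced) in embryoid bodies, against 9.88 to 10.39 over the fitted pluripotent arrays. Of these genes, LIN28A and SOX2 departed from the mean. LIN28A averaged 11.54, 11.56 and 10.98 in embryoid bodies in this group order, against 11.34, 11.44 and 11.16 in pluripotent cells. SOX2 averaged 10.81, 10.18 and 11.20, against 10.50, 10.18 and 10.39. The embryoid bodies differed in cell makeup between groups, with 4 neural genes at 8.98 to 9.18, 7.84 and 9.75 to 9.80 and 5 neural crest genes at 7.40 to 7.65, 9.71 to 9.81 and 5.74 to 5.90 in the same group order. For 5 endoderm genes the means were 5.31 to 5.52 (KBTBD8 shRNA), 6.93 to 7.08 (control shRNA) and 4.80 to 4.96 (untransduced) in embryoid bodies, and 5.42 to 5.45, 6.12 to 6.36 and 5.01 to 5.08 in pluripotent cells, so these means differed between the groups in both states. AFP, APOA2 and TTR followed these means. In embryoid bodies SOX17 (5.73, 5.63 and 5.32 in the same group order) and FOXA2 (5.90, 5.85 and 5.52) did not. Single neural genes also departed from the neural means there, with PAX6 at 9.07, 9.62 and 10.32 and SIX3 at 10.41, 7.18 and 9.90. Fewer cells of a type and less RNA per cell cannot be told apart in such bulk samples, and the part of cell makeup in the results below was not tested. Differences are in log2 units from limma over 15009 probe sets, a call is a Benjamini-Hochberg adjusted p below 0.05, and p-values measure the spread between these samples, which may be technical.

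The largest pattern was a higher level of snoRNAs in cells with control shRNA than in untransduced cells, in both states. In embryoid bodies 66 of the 140 members rose and 6 fell with control shRNA (24.5% and 20.1% of all probe sets did so, 44.6% in all). In pluripotent cells 62 rose and 5 fell (16.9% and 12.2% of all, 29% in all). The median difference of the members was 0.51 in embryoid bodies and 0.46 in pluripotent cells, against 0.04 over all tested probe sets in each. Most calls were of box C/D RNAs: 42 of 75 rose and 1 fell in embryoid bodies (median 0.61), and 40 rose and 0 fell in pluripotent cells (median 0.62). Box H/ACA RNAs followed with 22 of 49 risen and 1 fallen (median 0.37) in embryoid bodies and 21 risen and 0 fallen (median 0.38) in pluripotent cells. Among Cajal body RNAs 2 of 16 rose and 4 fell (median 0.08) in embryoid bodies, and 1 rose and 5 fell (median 0.15) in pluripotent cells. Among the 91 members above the percentile on every array, 38 rose and 4 fell in embryoid bodies and 38 rose and 3 fell in pluripotent cells. With all 18 arrays in the fit 46 members rose and 5 fell in embryoid bodies (15% and 12% of all probe sets, 26.9% in all), and 36 rose and 4 fell in pluripotent cells (6.9% and 5.18%, 12.1% in all).

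**Figure D1:**
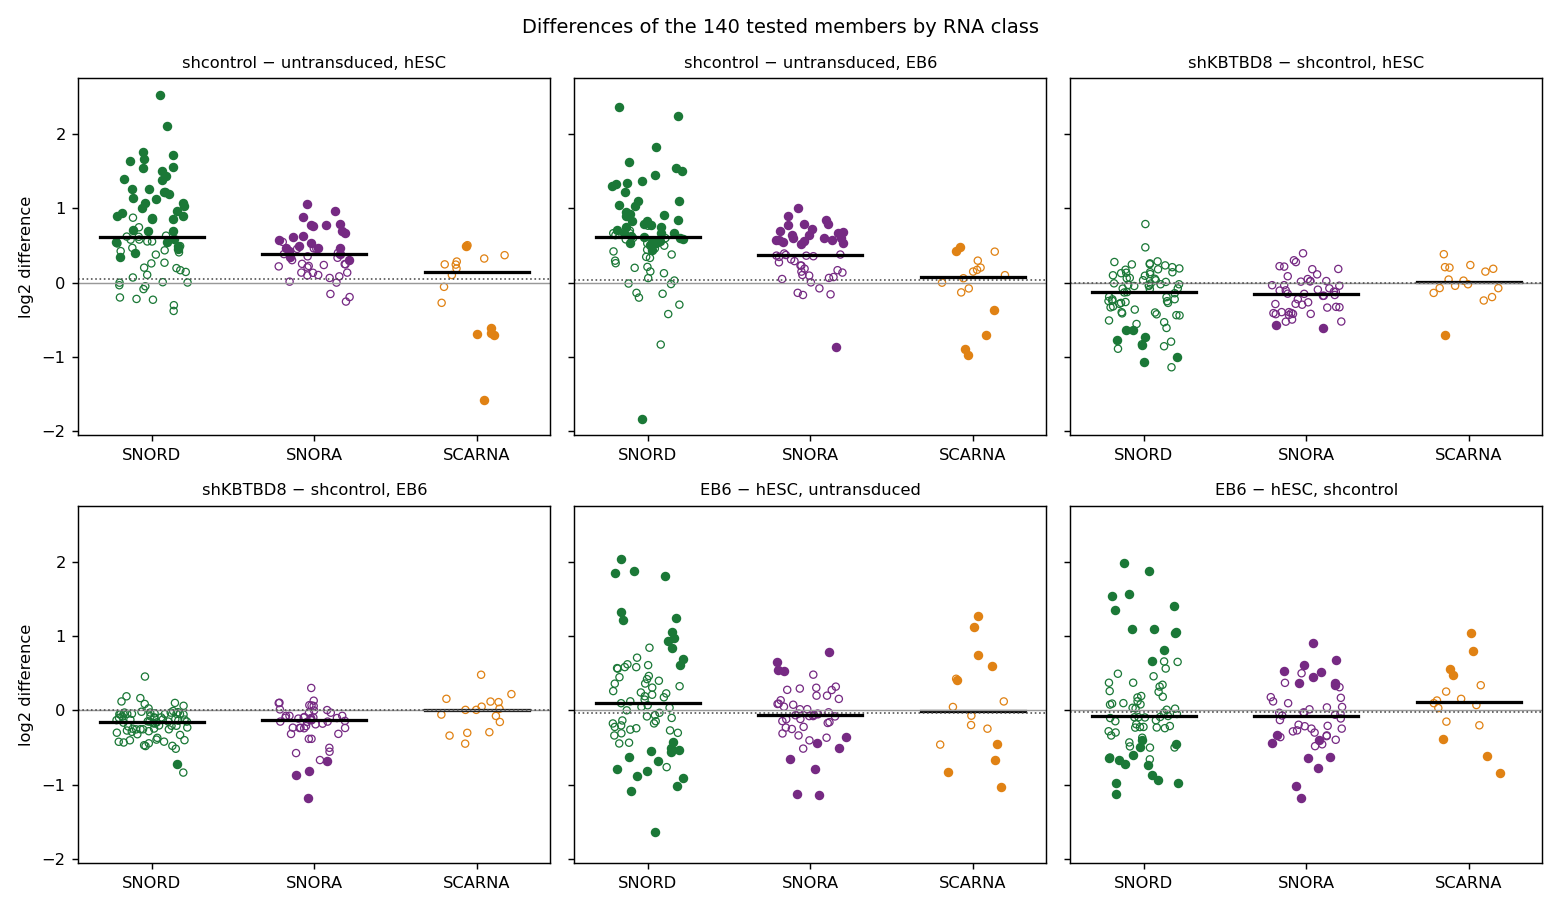
Differences in log2 units for the 140 tested members (points), in columns by RNA class, with 1 panel per comparison named above it as first group minus second. Filled points passed an adjusted p of 0.05, black lines mark class medians and dotted lines the median of all 15009 probe sets. The SNORD column sits mostly above 0 for control shRNA against untransduced cells (medians 0.62 in hESC and 0.61 in EB6), the called SCARNA members lie mostly below 0 there, and the called members of both KBTBD8 panels lie below 0.

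The size of the difference depended on a few untransduced arrays. Without pluripotent untransduced replicate 1, the array nearest to the control shRNA group, 74 members rose and 5 fell in pluripotent cells, and without replicate 3 of that group 41 rose and 5 fell. Without embryoid body untransduced replicate 2, 81 rose and 5 fell, and without replicate 1 of that group 50 rose and 6 fell. With 1 array left out the members' median difference ran from 0.38 to 0.53 in pluripotent cells and from 0.34 to 0.59 in embryoid bodies. The share of all probe sets called is not given beside such counts, here or below. These counts thus do not tell a shift of the members from one of all probe sets. The median SNORD level was 7.24 to 7.33 on the control shRNA arrays of embryoid bodies and 6.22 to 6.95 on the untransduced ones, and 6.94 to 6.99 and 5.92 to 6.66 in pluripotent cells, so the groups did not overlap in either state. Median SCARNA levels in pluripotent cells ran the other way, at 6.82 to 6.92 with control shRNA and 7.23 to 7.35 in untransduced cells, although the median of the single differences was 0.15. The members also varied more than other probe sets, with a median residual SD of 0.305 for SNORD, 0.241 for SNORA and 0.194 for SCARNA, against 0.131 for the other 14869. Transduction and any other difference between the untransduced and transduced samples, such as preparation, cannot be told apart. Short RNA is recovered less completely than long RNA on silica columns such as those used here, and its share in each extract was not measured.

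**Figure D2:**
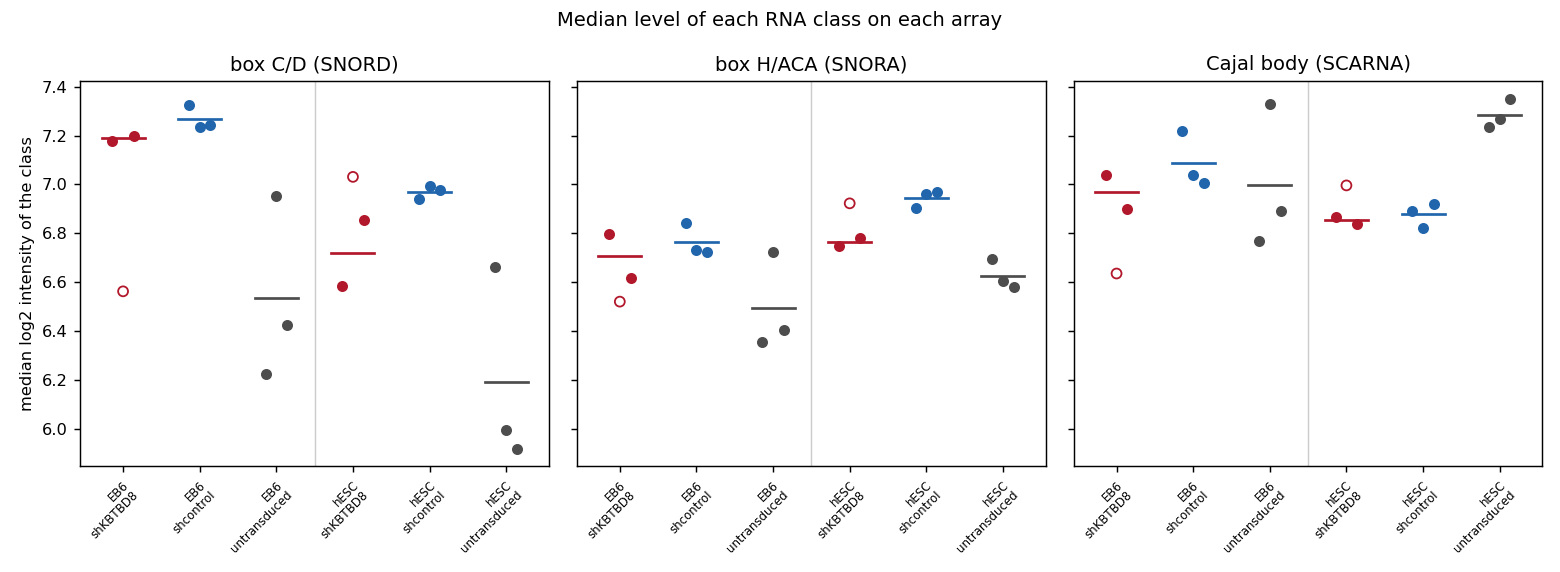
Median log2 intensity of the tested SNORD, SNORA and SCARNA members on each array, by group. Filled points are fitted arrays, open circles are the KBTBD8 shRNA replicate 2 arrays read apart, and lines are means of the fitted arrays. In the SNORD panel the untransduced arrays sit below the fitted shRNA arrays, except that 1 hESC array (6.66) lies above the lower KBTBD8 shRNA array (6.58). In the SCARNA panel for hESC the untransduced arrays sit above both shRNA groups.

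Of the 6 tested members held by GAS5, a non-coding host of many box C/D RNAs, 4 rose in each state: SNORD44, SNORD74, SNORD75 and SNORD78. SNORD75, which guides methylation of the large-subunit ribosomal RNA, read 8.71, 8.49 and 8.77 on control shRNA arrays of embryoid bodies and 6.59, 7.30 and 7.44 on untransduced ones, a difference of 1.55 ± 0.39 (SE, adjusted p = 0.00496). In pluripotent cells it read 8.53, 8.82 and 8.71 with control shRNA and 8.35, 6.26 and 6.20 in untransduced cells, a difference of 1.76 ± 0.39 (SE, adjusted p = 0.00411). All control shRNA values exceeded all untransduced ones, and the first untransduced pluripotent array lay close below them. SNORD74, another large-subunit guide, differed by 1.33 ± 0.17 (adjusted p = 1.55e-05) in embryoid bodies and 1.26 ± 0.17 (adjusted p = 0.000134) in pluripotent cells. SNORD79 differed by 0.50 in embryoid bodies and 0.53 in pluripotent cells (adjusted p = 0.0587 there), and SNORD81 by −0.15 and 0.17, with no call for either.

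SNORD12C, held by ZFAS1, was higher in pluripotent cells with control shRNA than in untransduced ones. It read 6.02, 6.27 and 6.38 with control shRNA and 5.02, 3.81 and 4.85 in untransduced cells, a difference of 1.66. SNORD12C exceeded the percentile on all 3 control shRNA arrays of each state, but in pluripotent cells on 0 arrays of the other groups. It thus passed the filter mainly through groups where it is high. Its differences between control shRNA and the other pluripotent groups are therefore descriptions, here and below. In embryoid bodies it read 5.54, 5.50 and 5.64 with control shRNA and 4.19, 5.55 and 4.85 in untransduced bodies, where replicate 2 overlapped the control shRNA arrays. That difference of 0.70 was not called (adjusted p = 0.0659), but was 1.04 (adjusted p = 0.00812) without untransduced replicate 2. SNORD60, a large-subunit guide held by SNHG19, read 6.57, 6.76 and 6.94 in pluripotent cells with control shRNA and 5.84, 5.14 and 5.13 in untransduced cells, a difference of 1.38 ± 0.15 (adjusted p = 3.15e-05). In embryoid bodies its values were 5.69, 5.84 and 5.89 with control shRNA and 5.33, 5.46 and 5.33 in untransduced bodies, a difference of 0.44 ± 0.15 (adjusted p = 0.028) that was not called with all 18 arrays (adjusted p = 0.257), after quantile normalization (0.26, adjusted p = 0.235), or without untransduced replicate 1 or 3 or control shRNA replicate 2 or 3, where adjusted p reached 0.0866. The test of the difference between the states gave −0.94 (adjusted p = 0.00631), and 0.216 as the adjusted p with all 18 arrays.

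SNORD14E, of a family that takes part in processing of the small-subunit ribosomal RNA, showed the largest rise in each state. This RNA, held by HSPA8, read 9.55, 9.37 and 9.50 on control shRNA arrays of embryoid bodies and 6.38, 8.54 and 6.38 on untransduced ones, a difference of 2.37 (adjusted p = 0.00224). In pluripotent cells it read 7.29, 7.68 and 7.80 with control shRNA and 6.45, 4.65 and 4.09 in untransduced cells, a difference of 2.53 ± 0.54 (adjusted p = 0.00288, and 0.0522 with all 18 arrays). Every control shRNA value exceeded every untransduced one, and 1 untransduced array in each state lay far above the other two. SNORD14C rose by 1.34 in embryoid bodies (adjusted p = 0.021) and by 1.56 in pluripotent cells (adjusted p = 0.0144), and the call in pluripotent cells was lost with all 18 arrays (adjusted p = 0.0728) and without untransduced replicate 3 (1.12, adjusted p = 0.0813). SNORD13, which also acts in precursor cleavage, differed by 0.06 in embryoid bodies and 0.00 in pluripotent cells, with no call, whereas SNORD13P1, a copy of it by name, rose by 1.62 (adjusted p = 0.0138) and 2.10 (adjusted p = 0.00512). The SNORD13P1 call in embryoid bodies was lost without untransduced replicate 1 (1.41, adjusted p = 0.0546).

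Other large rises belonged to box C/D RNAs of several host genes. SNORD59A, held by ATP5F1B, read 5.54, 5.39 and 5.58 in embryoid bodies with control shRNA and 2.72, 3.98 and 3.08 in untransduced bodies, a difference of 2.24. It exceeded the percentile on 3 arrays, all of transduced embryoid bodies, and so passed the filter through groups where it is high, which makes this difference a description. SNORD82, held by the nucleolin gene NCL, read 7.72, 7.24 and 7.46 there with control shRNA and 5.22, 5.97 and 5.73 in untransduced bodies, a difference of 1.83 (adjusted p = 0.000241). Neither RNA overlapped between the groups. SNORD30, held by SNHG1, read 10.08, 10.05 and 9.99 with control shRNA and 8.21, 9.23 and 8.34 in untransduced embryoid bodies, a difference of 1.45 (adjusted p = 0.00365), and differed by 1.63 (adjusted p = 0.00317) in pluripotent cells. In pluripotent cells SNORD50A and SNORD50B of SNHG5 rose by 1.54 and 1.71 (adjusted p = 0.00291 and 0.00218), with the untransduced SNORD50A values at 9.22, 7.58 and 7.33 against 9.53, 9.56 and 9.66 with control shRNA. The largest H/ACA rises were those of SNORA67 in embryoid bodies (1.00) and SNORA33 in pluripotent cells (1.05), each below the 8 largest SNORD rises of its state.

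**Figure D3:**
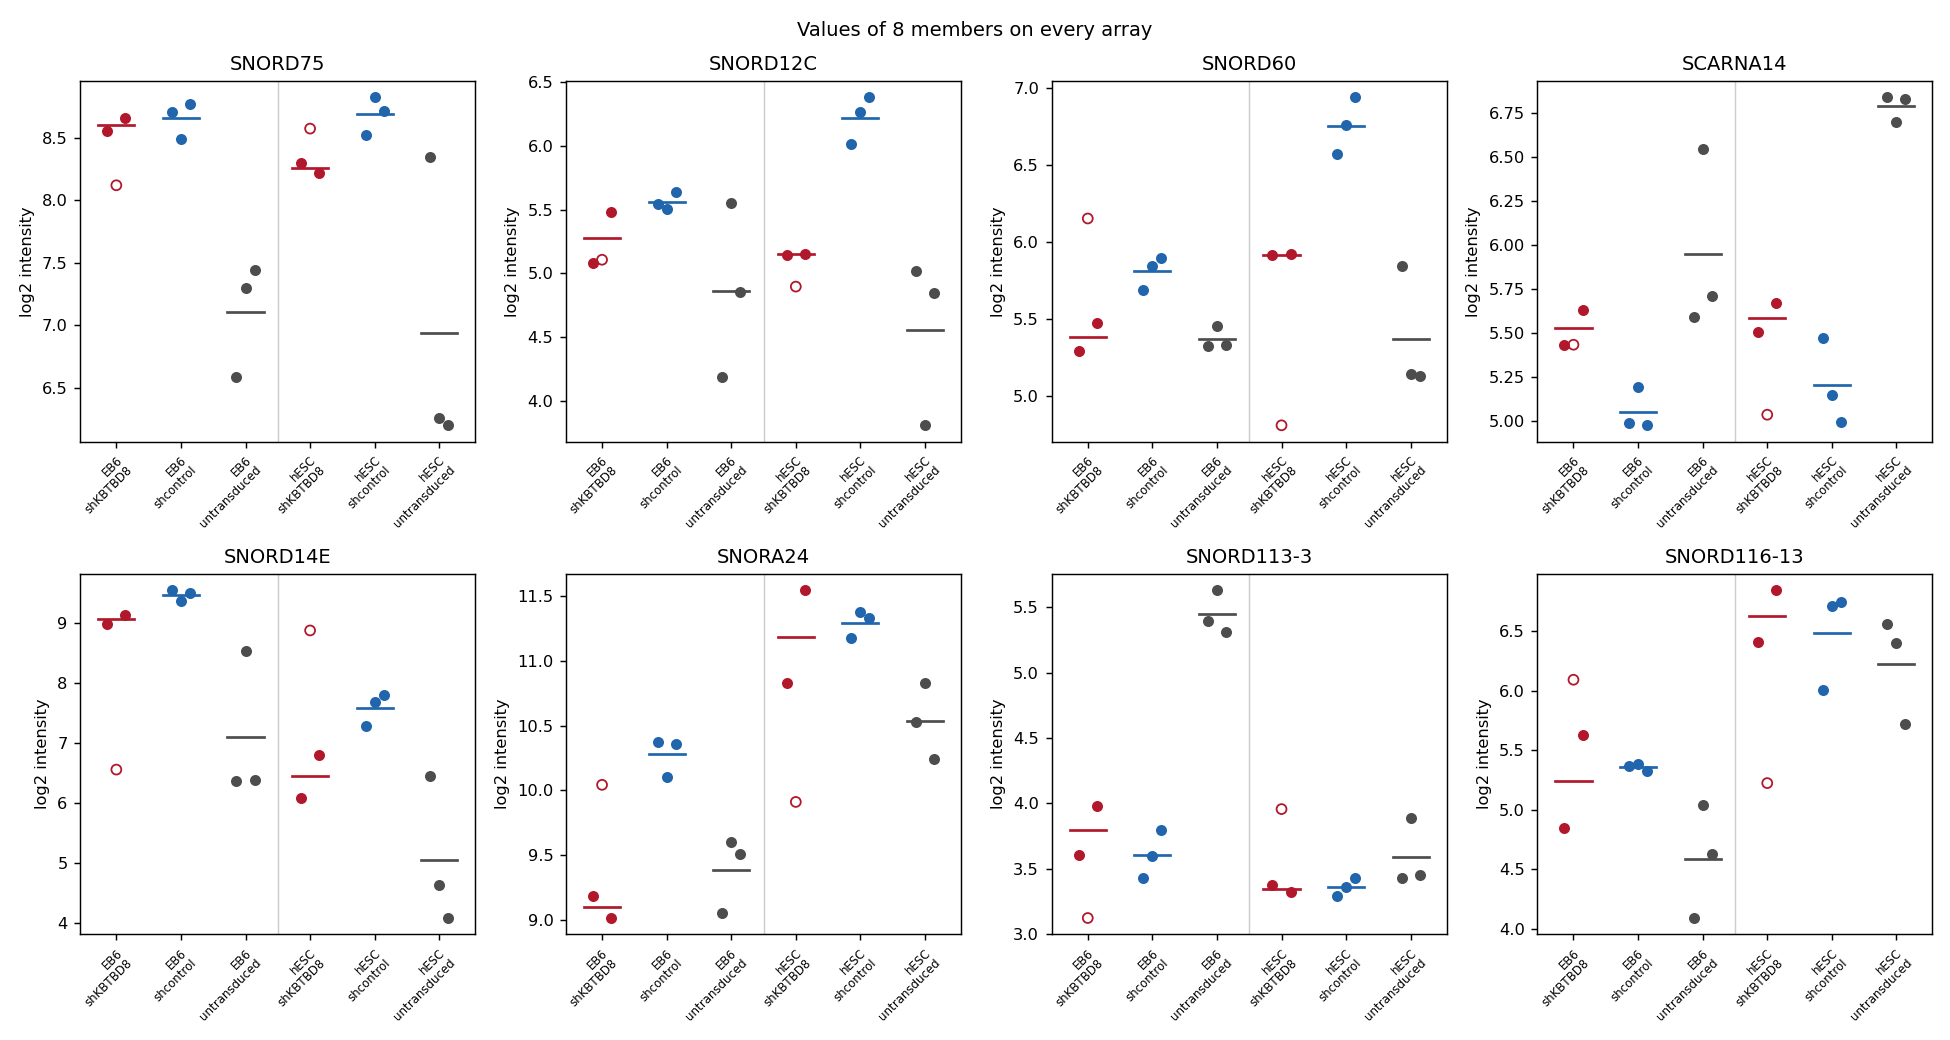
Log2 intensity of 8 members on every array by group. Filled points are fitted arrays, open circles are the KBTBD8 shRNA replicate 2 arrays read apart, and lines are means of the fitted arrays. On average SNORD75 is lowest in the untransduced groups and SCARNA14 is highest there. For SNORD75, untransduced hESC replicate 1 lies above both fitted hESC KBTBD8 shRNA arrays. SNORD113-3 stands between 5.31 and 5.63 in untransduced embryoid bodies and below 4 on every other array. Several open circles lie nearer to the opposite state than to their own.

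Cajal body RNAs made up most of the members that fell. SCARNA14 read 4.99, 5.19 and 4.98 in embryoid bodies with control shRNA and 5.59, 6.55 and 5.71 in untransduced bodies, a difference of −0.90. In pluripotent cells it read 5.47, 5.15 and 4.99 with control shRNA and 6.84, 6.70 and 6.83 in untransduced cells, a difference of −1.58. SCARNA14 exceeded the percentile on all 3 untransduced arrays of each state and on 0 control shRNA arrays. Within these comparisons it thus passed the filter through the groups where it is high. Both differences are therefore descriptions, although SCARNA14 is counted among the fallen members. SCARNA22, held by NSD2, fell by 0.98 (adjusted p = 2.12e-05) in embryoid bodies and by 0.70 (adjusted p = 0.00112) in pluripotent cells, and SCARNA8, held by HAUS6, by 0.37 (adjusted p = 0.0139) and 0.62 (adjusted p = 0.000997). The SCARNA8 call in embryoid bodies was lost without control shRNA replicate 1 or untransduced replicate 2, with an adjusted p of up to 0.0715. SCARNA9 on probe set 7943160 fell by 0.71 in embryoid bodies and by 0.68 in pluripotent cells, with adjusted p of 0.0495 and 0.0954 with all 18 arrays. SCARNA11 fell by 0.69 in pluripotent cells (adjusted p = 0.0162), a call lost without untransduced replicate 2 or control shRNA replicate 2 or 3 (adjusted p of up to 0.071).

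The 2 other members counted as fallen in embryoid bodies were SNORD113-3 and SNORA22. SNORD113-3, of the imprinted chromosome 14 array, read 3.43, 3.60 and 3.80 with control shRNA and 5.39, 5.63 and 5.31 in untransduced bodies, a difference of −1.84. It exceeded the percentile only on these 3 untransduced arrays and passed the filter through them, so its differences are given here and below as descriptions, with no test. SNORA22, an H/ACA RNA, fell by 0.87 (adjusted p = 0.000543, and 0.0592 with all 18 arrays).

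The comparisons of control shRNA with untransduced cells in embryoid bodies and in pluripotent cells share no array. Of the members that rose, 43 did so in both states, which is 65.2% of those risen in embryoid bodies and 69.4% of those risen in pluripotent cells. Of those that fell 4 were shared (66.7% and 80%), and 0 moved in opposite directions. How many of all probe sets were called in both states was not counted. These shared counts thus do not tell a trait of the members from one of all probe sets. Across the 140 members the differences correlated at r = 0.753, against 0.427 across all 15009 probe sets, given as a description because the members share sequence, hosts and arrays. Shorter RNAs tended to show the larger rises (Spearman rho with length −0.401 in embryoid bodies and −0.467 in pluripotent cells, n = 140), again as a description: the SNORD RNAs have a median length of 78 nucleotides, the SNORA RNAs 134 and the SCARNA RNAs 304. Within SNORD alone the Pearson correlations with length were −0.231 and −0.379. Over bands of mean level the members' median difference ran from 0.29 to 0.63 in embryoid bodies and from 0.42 to 0.55 in pluripotent cells, against −0.07 to 0.15 and −0.03 to 0.08 over all probe sets in the same bands. Other short RNAs on the array had smaller medians: among 65 microRNA probe sets 18 rose and 2 fell in embryoid bodies (median 0.25) and 12 rose and 3 fell in pluripotent cells (median 0.14). Among 30 small nuclear, Y and vault RNA probe sets 2 rose and 1 fell in embryoid bodies and 2 rose and 2 fell in pluripotent cells.

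**Figure D4:**
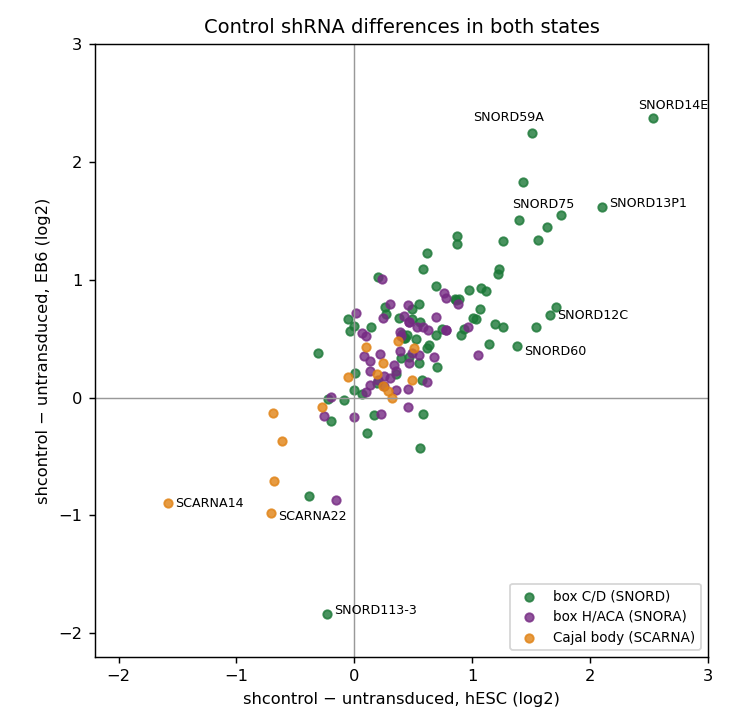
Difference of control shRNA from untransduced cells in log2 units for the 140 tested members, in pluripotent cells (x axis) and in embryoid bodies (y axis), coloured by class. The 2 axes share no array. Most SNORD and SNORA points lie in the upper right, and SCARNA14 (−1.58 and −0.90) and SCARNA22 (−0.70 and −0.98) in the lower left.

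The genes that hold the members were set against them. A tested holding gene was available for 74 members, over 53 genes, as the RefSeq gene whose span contains the RNA, without regard to strand. Among the 29 of these members that rose in embryoid bodies with control shRNA, the holding gene rose for 4, fell for 1 and was not called for 24. Among the 31 that rose in pluripotent cells, it rose for 5, fell for 4 and was not called for 22. Among the 4 that fell in embryoid bodies, the holding gene fell for 2 and was not called for 2. These 2 were TIPIN for SCARNA14 (−0.295, adjusted p = 0.0188, and 0.468 with all 18 arrays) and HAUS6 for SCARNA8 (−0.40, adjusted p = 0.00864, and 0.113). Among the 4 that fell in pluripotent cells, it rose for 1 and was not called for 3. Over all probe sets 24.5% rose and 20.1% fell in embryoid bodies, and 16.9% rose and 12.2% fell in pluripotent cells. The median difference of the holding gene over the 74 members was −0.02 in embryoid bodies and 0.01 in pluripotent cells, against a median of 0.38 and 0.43 for the members. The member's difference exceeded its gene's in 59 of 74 and 60 of 74 pairs. Across the pairs the differences correlated at r = 0.195 and −0.032, a description in which several members share a gene.

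In pluripotent cells 3 non-coding hosts fell while an RNA that each holds was higher. ZFAS1 fell by 0.40 (adjusted p = 0.00184) in embryoid bodies and by 0.56 ± 0.09 (adjusted p = 0.000388) in pluripotent cells. Its SNORD12C differed by 1.66 in pluripotent cells, as a description. SNHG29 fell by 0.24 (adjusted p = 0.0121, and 0.0884 with all 18 arrays) and 0.38 (adjusted p = 0.00132), while its SNORD49A rose by 1.14 in pluripotent cells (adjusted p = 0.0243, and 0.094 with all 18 arrays). EPB41L4A-AS1 fell by 0.58 (adjusted p = 0.000949) in pluripotent cells, where SNORA13, which it holds, read 6.12, 6.39 and 6.32 with control shRNA and 5.18, 5.31 and 5.45 in untransduced cells. In all, 4 of 22 listed non-coding hosts could be tested, of which 0 rose and 2 fell in embryoid bodies and 0 rose and 3 fell in pluripotent cells. Of 44 tested protein-coding hosts, 9 rose and 6 fell in embryoid bodies and 8 rose and 7 fell in pluripotent cells. Fitted with all 18 arrays, the non-coding hosts gave 0 risen and 1 fallen in embryoid bodies and 0 and 3 in pluripotent cells, and the protein-coding hosts 4 and 3, then 4 and 5. HSPA8, the host of SNORD14C and SNORD14E, rose by 0.27 and 0.41 in the same 2 comparisons, with adjusted p of 0.0138 and 0.00215 that became 0.442 and 0.31 with all 18 arrays. GAS5, SNHG1, SNHG5 and SNHG19 had no tested probe set with a single symbol and were not analysed here.

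**Figure D5:**
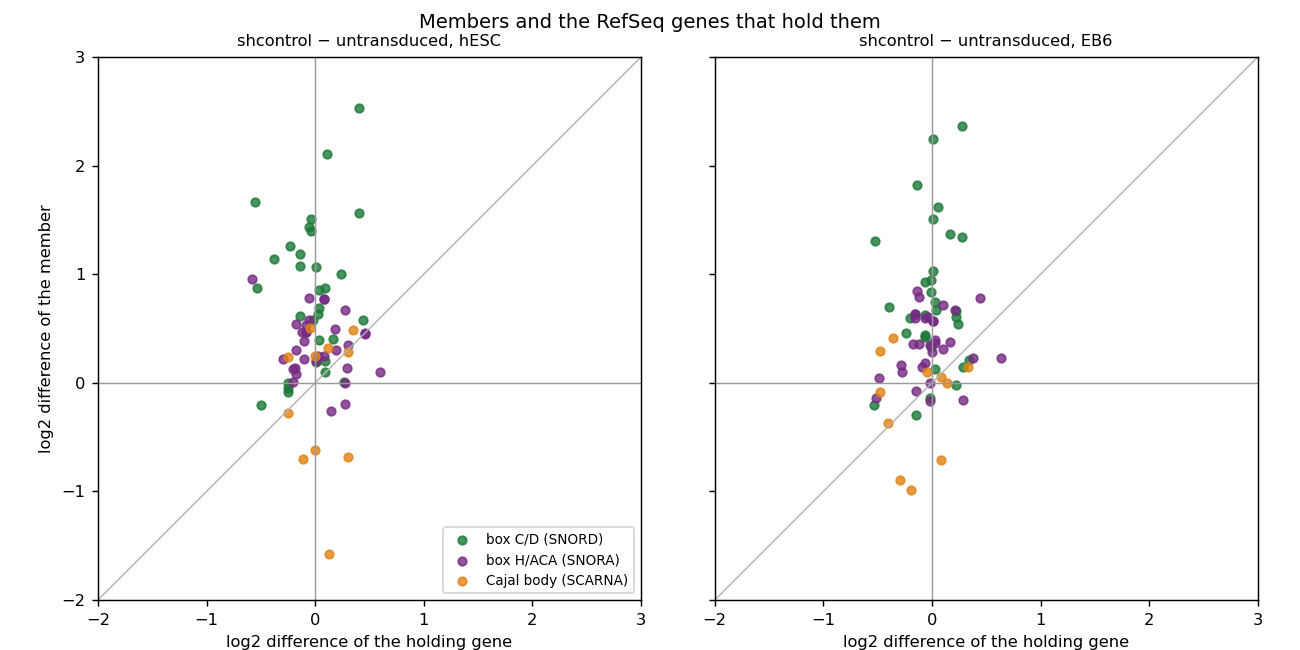
Difference of control shRNA from untransduced cells in log2 units for 74 members (y axis) and for the gene that holds each (x axis), in hESC and EB6 panels, coloured by class. The grey diagonal marks equal differences. Points spread upward over a narrow range of host differences, and 60 of 74 in hESC and 59 of 74 in EB6 lie above the diagonal.

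Genes of the snoRNA machinery were called in both directions with control shRNA, while 24.5% of all probe sets rose and 20.1% fell in embryoid bodies and 16.9% rose and 12.2% fell in pluripotent cells. The box C/D core proteins, represented by FBL (the methyltransferase fibrillarin) and NOP58, gave 0 risen and 1 fallen of 2 in embryoid bodies (NOP58, −0.39, adjusted p = 0.00185, and 0.203 with all 18 arrays) and 0 called in pluripotent cells. Among 4 H/ACA core proteins GAR1 alone was called, at −0.47 in embryoid bodies and −0.35 in pluripotent cells. Of 11 assembly factors 0 rose and 6 fell in embryoid bodies, with RPAP3 at −0.74 (adjusted p = 5.59e-05) and ZNHIT6 at −0.60 (adjusted p = 0.000201), and 1 rose and 3 fell in pluripotent cells. Of 16 trimming and decay genes 1 rose and 5 fell in embryoid bodies, with the exosome genes DIS3 at −0.57 and EXOSC3 at −0.68 and the debranching enzyme DBR1 at −0.56, and 0 rose and 1 fell in pluripotent cells. Of 14 Cajal body and nucleolar shuttle genes 1 rose and 4 fell in embryoid bodies and 4 rose and 0 fell in pluripotent cells. Fitted with all 18 arrays, the assembly factors gave 0 risen and 3 fallen in embryoid bodies and 1 and 2 in pluripotent cells, the trimming and decay genes 0 and 5, then 0 and 0, and the Cajal body and shuttle genes 1 and 0 in each state. TCOF1, a nucleolar protein known as a partner of KBTBD8, rose by 0.52 (adjusted p = 0.000123) and 0.51 (adjusted p = 0.000443).

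KBTBD8 shRNA was compared with control shRNA, which holds transduction constant. The called members were all lower with KBTBD8 shRNA: 0 rose and 5 fell in embryoid bodies (2.75% and 2.91% of all probe sets, 5.66% in all), and 0 rose and 10 fell in pluripotent cells (8.08% and 5.46%, 13.5% in all). The called share of the members was 3.57% and 7.14%. The members' median difference was −0.13 in embryoid bodies, where 114 of 140 lay below 0, and −0.12 in pluripotent cells, against 0.00 and −0.01 over all probe sets. No member was called in both states. With all 18 arrays 0 members were called in embryoid bodies (0.933% of all probe sets rose and 1.46% fell, 2.39% in all). In pluripotent cells 0 rose and 7 fell with them (2.18% and 2.79%, 4.97% in all). At an unadjusted p below 0.05 the 16 arrays gave 14 members of 140 in embryoid bodies and 21 in pluripotent cells by limma, against 2385 and 4117 of all 15009 probe sets. Among the 91 members above the percentile everywhere 0 rose and 5 fell in embryoid bodies and 0 rose and 8 fell in pluripotent cells.

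In embryoid bodies 4 of the 5 fallen members were H/ACA RNAs. SNORA24, a guide for the small-subunit ribosomal RNA held by SNHG8, read 9.19 and 9.02 with KBTBD8 shRNA and 10.38, 10.10 and 10.36 with control shRNA, a difference of −1.18 ± 0.20 (adjusted p = 0.00178). The array labelled KBTBD8 shRNA replicate 2, read apart, had 10.04, near the control shRNA arrays, and with it the difference was −0.86 (adjusted p = 0.239). SNORA22 read 8.31 and 8.33 with KBTBD8 shRNA, 9.13 on the array read apart, and 9.39, 8.88 and 9.14 with control shRNA, a difference of −0.82 (adjusted p = 0.0122, and 0.52 with all 18 arrays). SNORA14A differed by −0.87 (adjusted p = 0.046), SNORA71A by −0.69 (adjusted p = 0.0463) and SNORD46 by −0.73 (adjusted p = 0.0139), with no call for any of them with all 18 arrays. The SNORA24 call held with each array of the 2 groups left out in turn (adjusted p of up to 0.0371), while those of SNORA22 and SNORD46 were lost without control shRNA replicate 1 or KBTBD8 shRNA replicate 1 or 3 (up to 0.0953 and 0.124). SNORA14A lost its call without any 1 control shRNA array or KBTBD8 shRNA replicate 3 (up to 0.377), and SNORA71A without control shRNA replicate 1 or 3 or either KBTBD8 shRNA array (up to 0.409). Without control shRNA replicate 1 or KBTBD8 shRNA replicate 3 1 member was called, without KBTBD8 shRNA replicate 1 there were 2, and without control shRNA replicate 3 there were 3. Small nuclear, Y and vault RNAs were lower too on the 16 arrays, with 0 risen and 11 fallen of 30 (median −0.48), while 2.91% of all probe sets fell. For these RNAs no values with all 18 arrays or with single arrays left out are given.

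In pluripotent cells the fallen members were 7 box C/D RNAs, 2 H/ACA RNAs and 1 Cajal body RNA. SNORD60 read 5.92 and 5.92 with KBTBD8 shRNA and 6.57, 6.76 and 6.94 with control shRNA, a difference of −0.84 ± 0.17 (adjusted p = 0.00428). The array read apart had 4.81, below all of these, and with it the difference was −1.20 (adjusted p = 0.0215). SNORD34 and SNORD32A, both from introns of the ribosomal protein gene RPL13A, differed by −1.01 (adjusted p = 0.00822) and −0.73 (adjusted p = 0.0097, and 0.0564 with all 18 arrays). SNORD34 read 6.10 and 5.96 with KBTBD8 shRNA, 6.38 on the array read apart, and 6.94, 6.99 and 7.18 with control shRNA. SNORD4A of RPL23A fell by 0.78 (adjusted p = 0.0293), SNORD74 of GAS5 by 0.65 (adjusted p = 0.0334) and SNORD43 of RPL3 by 0.65 (adjusted p = 0.0144, and 0.154 with all 18 arrays). SNORA51, held by NOP56, differed by −0.61 (adjusted p = 0.00776), SNORA57 by −0.57 (adjusted p = 0.0122, and 0.213 with all 18 arrays), and SCARNA9L on probe set 8171760 by −0.71 (adjusted p = 0.00988). SNORD60 kept its call with each array of the 2 groups left out in turn (adjusted p of up to 0.0431). SNORD34, SNORD43 and SCARNA9L lost theirs without KBTBD8 shRNA replicate 3 (up to 0.144) and SNORD32A without replicate 1 (0.124), and SNORD4A and SNORD74 lost theirs without any 1 of the 5 arrays (up to 0.185).

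SNORD12C read 5.15 and 5.15 in pluripotent cells with KBTBD8 shRNA, 4.90 on the array read apart, and 6.02, 6.27 and 6.38 with control shRNA. Its difference of −1.07 is a description, because in pluripotent cells SNORD12C exceeded the percentile with control shRNA only. It is counted among the fallen members above, but that call was lost without any 1 of the control shRNA arrays. SNORD75 differed by −0.43 (adjusted p = 0.578) and SCARNA14 by 0.38 (adjusted p = 0.26), neither called. Without KBTBD8 shRNA replicate 3 the count of fallen members was 3, and without replicate 1 it was 6. In embryoid bodies SNORD75 differed by −0.05, SNORD60 by −0.42, SNORD12C by −0.28 and SCARNA14 by 0.48, with adjusted p from 0.206 to 0.983. Both KBTBD8 comparisons share their control shRNA arrays with the comparisons above, so a high control shRNA value enters both with opposite sign. The KBTBD8 partners NOLC1 and TCOF1 were not called against control shRNA, with differences of 0.03 and 0.06 in embryoid bodies and −0.09 and −0.23 in pluripotent cells (adjusted p from 0.105 to 0.934).

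Set against untransduced cells, cells with KBTBD8 shRNA also had more snoRNA signal. In embryoid bodies 43 members rose and 8 fell (22.5% and 18.4% of all probe sets, 40.9% in all), with 29 of 75 SNORD risen and 3 fallen, and in pluripotent cells 38 rose and 6 fell (16.9% and 11.3%, 28.2% in all), with 25 SNORD risen and 1 fallen. The median difference was 0.31 in embryoid bodies and 0.37 in pluripotent cells, against 0.04 over all probe sets in embryoid bodies and 0.05 in pluripotent cells. With all 18 arrays 25 rose and 6 fell in embryoid bodies (17.6% and 13.9% of all, 31.5% in all), and 20 rose and 4 fell in pluripotent cells (7.28% and 6.94%, 14.2% in all). These counts leaned on single arrays: in pluripotent cells 9 members were called without KBTBD8 shRNA replicate 3, 23 without untransduced replicate 3, and 55 without untransduced replicate 1. In embryoid bodies 24 were called without KBTBD8 shRNA replicate 3, 25 without replicate 1, and 33 without untransduced replicate 1 or 3. SNORD75 read 8.55 and 8.66 in embryoid bodies with KBTBD8 shRNA (difference from untransduced 1.496, adjusted p = 0.0132, lost without either KBTBD8 shRNA array or untransduced replicate 1, at up to 0.065). In pluripotent cells it read 8.30 and 8.22 (1.33, adjusted p = 0.0342, lost without either KBTBD8 shRNA array or untransduced replicate 2 or 3, at up to 0.134). For SNORD75, untransduced pluripotent replicate 1 lay above both KBTBD8 shRNA arrays, so these pluripotent groups overlapped. SCARNA14 differed by −0.42 in embryoid bodies (adjusted p = 0.124) and by −1.20 in pluripotent cells (adjusted p = 0.000755), where it read 5.50 and 5.67. SNORD60 and SNORD12C differed by 0.55 (adjusted p = 0.0254, and 0.712 with all 18 arrays) and 0.59 (adjusted p = 0.198) in pluripotent cells. The SNORD60 call was lost without either KBTBD8 shRNA array or untransduced replicate 2 or 3 (adjusted p of up to 0.117). SNORD82 rose by 1.89 in embryoid bodies (adjusted p = 0.000586) and by 1.42 in pluripotent cells (adjusted p = 0.00698). SNORD59A differed by 2.20 and 1.57 and SNORD113-3 by −1.65 in embryoid bodies, as descriptions only. SNORA22 fell by 1.69 (adjusted p = 4.46e-06) and SCARNA22 by 1.28 (adjusted p = 6.46e-06) in embryoid bodies. SCARNA22 also fell in pluripotent cells, by 0.56 (adjusted p = 0.00953), a call lost without KBTBD8 shRNA replicate 3 (0.224).

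Differentiation changed the members in both directions in each background. In KBTBD8 shRNA cells 14 members were higher and 21 lower in embryoid bodies than in pluripotent cells (17.3% and 20.8% of all probe sets, 38.1% in all), with 0 called of the members and 0% of all probe sets with all 18 arrays. In control shRNA cells 25 rose and 24 fell (22.7% and 25%, 47.7% in all), and in untransduced cells 22 rose and 25 fell (25.6% and 26.2%, 51.8% in all). With all 18 arrays 15 rose and 16 fell in control shRNA cells (16.8% and 16.5% of all, 33.3% in all), and 11 rose and 21 fell in untransduced cells (20.2% and 18.1%, 38.3% in all). The called share of the members was 25%, 35% and 33.6% in the 3 backgrounds in this order, and their medians were 0.03, −0.05 and −0.01. By class, in control shRNA cells 12 SNORD rose and 13 fell, 9 SNORA rose and 8 fell, and 4 SCARNA rose and 3 fell. The direction of the untransduced count moved with 1 array: without pluripotent untransduced replicate 1, 41 rose and 23 fell, and without embryoid body untransduced replicate 2, 13 rose and 33 fell. The control shRNA and untransduced comparisons share no array, and 15 members rose in both (60% and 68.2% of those risen) and 14 fell in both (58.3% and 56%). Shared calls were not counted over all probe sets, so this overlap is not set against theirs. Their differences correlated at r = 0.782, against 0.763 across all probe sets.

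SNORD59B, held by ATP5F1B, rose in each background. It read 8.12 and 8.13 in embryoid bodies with KBTBD8 shRNA and 6.33 and 6.76 in pluripotent cells with it, while the arrays read apart had 6.41 and 7.62. That difference was 1.58 (adjusted p = 0.00805), and was not called with all 18 arrays (0.65, adjusted p = 0.808) or without pluripotent KBTBD8 shRNA replicate 1 (1.37, adjusted p = 0.0653). With control shRNA it read 8.24, 8.32 and 8.21 in embryoid bodies and 6.13, 6.12 and 6.55 in pluripotent cells, a difference of 1.99 (adjusted p = 0.000193). In untransduced samples it read 6.61, 7.17 and 6.46 in embryoid bodies and 6.06, 4.01 and 4.53 in pluripotent cells, a difference of 1.88 ± 0.35 (adjusted p = 0.000284). The states did not overlap in any background among the fitted arrays. SNORD117 rose by 1.57 with control shRNA (adjusted p = 6.03e-06) and by 1.05 in untransduced cells (adjusted p = 0.000258, and 0.0694 with all 18 arrays). SNORD38B rose by 1.54 and 1.24, SCARNA9 on probe set 7943158 by 1.04 and 1.27, and SCARNA10 by 0.80 and 1.12. SNORD13P2 differed by 1.41 and 1.81. It exceeded the percentile on all 3 embryoid body arrays of both these backgrounds and on 0 of their pluripotent arrays. It thus passed the filter mainly through embryoid bodies, where it is high, so its differences are descriptions.

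SNORA24 was lower in embryoid bodies in each background. It read 9.19 and 9.02 in embryoid bodies with KBTBD8 shRNA and 10.83 and 11.55 in pluripotent cells with it, a difference of −2.09 (adjusted p = 2.23e-06, and 0.801 with all 18 arrays). With control shRNA its values were 10.38, 10.10 and 10.36 in embryoid bodies and 11.17, 11.37 and 11.33 in pluripotent cells (−1.01, adjusted p = 0.00025). In untransduced samples they were 9.05, 9.61 and 9.51 in embryoid bodies and 10.53, 10.83 and 10.24 in pluripotent cells (−1.15, adjusted p = 7.09e-05). SNORA74A differed by −1.46, −1.18 and −1.13 in the same order of backgrounds. With KBTBD8 shRNA SNORA22 fell by 1.77 (adjusted p = 3.83e-06) and SNORA14A by 1.58 (adjusted p = 0.000204), neither called with all 18 arrays (adjusted p = 0.801 each, as for SNORA74A). SNORD60 fell with control shRNA by 0.94 (adjusted p = 8.46e-05) and differed by −0.00 in untransduced cells, while SCARNA14 fell in untransduced cells by 0.84 (adjusted p = 0.00145) and differed by −0.15 with control shRNA. SNORD75 differed by −0.03 with control shRNA and by 0.17 in untransduced cells (adjusted p = 0.73), but by 0.88 (adjusted p = 0.00104) without pluripotent untransduced replicate 1.

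Many of the imprinted SNORD116 RNAs, whose deletion is tied to Prader-Willi syndrome, were lower in embryoid bodies. Of 14 tested imprinted snoRNAs (13 SNORD116 and SNORD113-3), 1 rose and 8 fell in KBTBD8 shRNA cells, 0 rose and 7 fell in control shRNA cells, and 1 rose and 11 fell in untransduced cells. The risen member was SNORD113-3, which is given only as a description. Over all probe sets the shares fallen were 20.8%, 25% and 26.2% in the same order. Fitted with all 18 arrays, 0 were called in KBTBD8 shRNA cells, 0 rose and 5 fell in control shRNA cells, and 1 rose and 8 fell in untransduced cells, while 0%, 16.5% and 18.1% of all probe sets fell. Their median difference was −0.69 with KBTBD8 shRNA (−0.23 when all 18 arrays were fitted), −0.49 with control shRNA and −0.59 in untransduced cells, against 0.01, −0.02 and −0.04 over all probe sets in the same order. SNORD116-13 read 5.37, 5.38 and 5.33 in embryoid bodies with control shRNA and 6.01, 6.71 and 6.74 in pluripotent cells with it, a difference of −1.13. In untransduced samples it read 4.09, 5.04 and 4.63 in embryoid bodies and 6.56, 6.40 and 5.72 in pluripotent cells, a difference of −1.64. The states did not overlap in either background. SNORD116-13 exceeded the percentile on all 3 pluripotent arrays of both backgrounds and on 0 of their embryoid body arrays. It thus passed the filter mainly through the state where it is high, and its differences are descriptions. SNORD116-25, SNORD116-27 and SNORD116-28 also exceeded it on 0 of these embryoid body arrays, and the counts above include them. The span of SNHG14 contains all 13 SNORD116 members (SNORD116-6 also lies within LOC128966705), and the copies have close sequence, so they are not independent measurements.

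SNORD113-3 of the chromosome 14 array, held by MEG8, was high in untransduced embryoid bodies. It read 5.39, 5.63 and 5.31 in untransduced embryoid bodies and 3.43, 3.89 and 3.46 in untransduced pluripotent cells, a difference of 1.85. With control shRNA it read 3.43, 3.60 and 3.80 in embryoid bodies and 3.29, 3.36 and 3.43 in pluripotent cells, so that the control shRNA difference minus the untransduced one was −1.61. With KBTBD8 shRNA it read 3.61 and 3.98 in embryoid bodies and 3.37 and 3.32 in pluripotent cells, a difference of 0.45 that was 0.02 with all 18 arrays. The neural, neural crest and endoderm gene levels given above also differed between these embryoid bodies, and their part in this result was not tested.

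Among the machinery genes, more of the H/ACA core proteins fell than rose in embryoid bodies in each background. With control shRNA all 4 tested fell (NOP10 by 0.62, DKC1 by 0.47, NHP2 by 0.36 and GAR1 by 0.29), 3 of them with all 18 arrays. With KBTBD8 shRNA 0 rose and 2 fell (0 called with all 18 arrays), and in untransduced cells 0 rose and 3 fell (2 with all 18 arrays). Over all probe sets 20.8% fell with KBTBD8 shRNA, 25% with control shRNA and 26.2% in untransduced cells. Of 11 assembly factors 0 rose and 6 fell with control shRNA, including the helicases RUVBL1 (−0.90, adjusted p = 5.63e-08) and RUVBL2 (−0.62, adjusted p = 5.95e-05). Of these factors 0 rose and 4 fell with KBTBD8 shRNA and 1 rose and 4 fell in untransduced cells. Fitted with all 18 arrays, they gave 0 called with KBTBD8 shRNA, 0 risen and 3 fallen with control shRNA, and 1 and 1 in untransduced cells. Of 14 Cajal body and nucleolar shuttle genes 1 rose and 9 fell with control shRNA, including NOLC1, a chaperone of snoRNA particles and known partner of KBTBD8 (−0.55, adjusted p = 5.18e-05), and TCOF1 (−0.55, adjusted p = 3.82e-05). For this list the other backgrounds gave 2 risen and 5 fallen with KBTBD8 shRNA and 1 and 3 in untransduced cells. Fitted with all 18 arrays, it gave 0 called with KBTBD8 shRNA, 1 risen and 7 fallen with control shRNA, and 1 and 1 in untransduced cells. The SNORA members were split in control shRNA cells, with 9 higher and 8 lower.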

How the data were processed

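The deposited values are log2 intensities per probe set. The submitters' processing notes name GCRMA as the method by which the authors made them, without a version. The log base was inferred from the range of the values, and whether all arrays were normalized together is not given in the sources used here. Probe sets were named through GEO's platform annotation, where 19460 had 1 symbol, 1754 several and 12083 none, and 76 with several symbols that include a snoRNA were left out of the main results. The 15009 single-symbol probe sets above their array's 40th percentile on at least 3 of 18 arrays were fitted with limma 3.58.1 in R 4.3.3 (lmFit and eBayes, 1 mean per group, 16 arrays), with Benjamini-Hochberg adjustment over all of them. Holding genes and promoter sequences came from RefSeq (GRCh38.p14), and all 198 members matched by gene ID. The fit was tested on simulated data for control shRNA against untransduced pluripotent cells over 15009 probe sets: 97 of 100 changes of 1 log2 unit and 60 of 100 of 0.5 were called. The changed probe sets were drawn from all 15009. The members varied more (median residual SD 0.272, against 0.131 for the other probe sets), so these rates are not those of the members. The number of arrays limits the precision. The members and gene lists were chosen with earlier results of these data known. The named members were the 4 markers, and for each comparison the called members with the largest differences, not overlapping between groups, with further members named after their values were seen. Alternatives were all 18 arrays, other filters, all probe sets, 1 probe set per symbol, quantile normalization, trend and robust fitting, only the groups compared, a replicate block and each array left out. Replicate numbers did not pair the arrays in most comparisons: 22 same-numbered pairs correlated at −0.38 to 0.38, with 5 above 0.1 and 8 below −0.1. In 2 comparisons every pair exceeded 0.1. These were KBTBD8 against control shRNA in pluripotent cells (0.38 and 0.354) and differentiation with KBTBD8 shRNA (0.316 and 0.316).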

Additional observations from a re-analysis of the deposited data

Results flagged for a closer look

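Tests of a difference between 2 effects were past an adjusted p of 0.05 for 9 results (limma, 16 arrays). The effect of KBTBD8 shRNA against control shRNA differed between embryoid bodies and pluripotent cells for 0 members upward and 3 downward, while 9.49% of all probe sets were called (3.42% with all 18 arrays). SNORA24 gave −1.07 (adjusted p = 0.0287), SNORD63 −1.27 (adjusted p = 0.0355) and SNORA22 −0.997 (adjusted p = 0.0232). With all 18 arrays 0 members were called, and these values were −0.33, −0.73 and −0.25. SNORD63 read 5.83 and 6.68 in embryoid bodies with KBTBD8 shRNA, against 7.03, 6.61 and 6.58 with control shRNA, and 7.29 and 7.25 in pluripotent cells with KBTBD8 shRNA, against 6.40, 6.51 and 6.53 with control shRNA. With single arrays left out the adjusted p reached 0.195 for SNORD63 (without embryoid body KBTBD8 shRNA replicate 1), 0.176 for SNORA24 and 0.0917 for SNORA22.

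The difference of embryoid bodies from pluripotent cells differed between control shRNA and untransduced backgrounds for 3 members upward and 3 downward, while 16.5% of all probe sets were called (5.12% with all 18 arrays). SNORD113-3, counted among these but given as a description because it passed the filter only through untransduced embryoid bodies, gave −1.61, and SNORD60 −0.94 (adjusted p = 0.00631, and 0.216 with all 18 arrays). SNORD116-20 gave 0.60 (adjusted p = 0.0142, and 0.0382), SNORD116-14 0.68 (adjusted p = 0.0439, and 0.138), SNORA50A 0.71 (adjusted p = 0.0137, and 0.506) and SNORA22 −0.72 (adjusted p = 0.0446, and 0.484). SNORA50A read 8.59, 8.44 and 8.56 in embryoid bodies with control shRNA and 7.77, 7.88 and 7.90 in pluripotent cells with it. In untransduced samples it read 7.63, 8.20 and 7.59 in embryoid bodies and 7.91, 7.90 and 7.70 in pluripotent cells. With single arrays left out the adjusted p reached 0.104 for SNORD116-14 and 0.12 for SNORA22, and stayed below 0.05 for SNORD60, SNORD116-20 and SNORA50A. Without pluripotent untransduced replicate 1, 15 members were called, and without embryoid body untransduced replicate 2, 10 were.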

How the results depend on the processing

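Counts of called members with all 18 arrays fitted as labelled were 40 for control shRNA against untransduced pluripotent cells, 0 for KBTBD8 against control shRNA in embryoid bodies, 31 and 24 for KBTBD8 shRNA against untransduced embryoid bodies and pluripotent cells, 31 and 0 for embryoid bodies against pluripotent cells with control and KBTBD8 shRNA, and 2 and 0 for the tests of control shRNA background by state and of KBTBD8 effect by state. Fitting only the groups compared gave 76 and 57 for differentiation with control and KBTBD8 shRNA, 11 and 26 for KBTBD8 against control shRNA in embryoid bodies and pluripotent cells, 21 for KBTBD8 shRNA against untransduced pluripotent cells and 11 for KBTBD8 effect by state. That last count was 5 above the 60th percentile, 8 after quantile normalization, 1 over all probe sets and 5 with trend and robust fitting. For KBTBD8 against control shRNA in embryoid bodies 3 members were called with no filter, 3 over all probe sets and 3 with the replicate block. KBTBD8 shRNA against untransduced pluripotent cells gave 25 above the 60th percentile and 29 over all probe sets. The replicate numbers did not pair the samples in most comparisons, and the replicate block moved no other count by over 1.5 times. Shares of all probe sets called with only the groups compared are not given here.

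Leaving out 1 array gave 56 to 86 (embryoid bodies) and 46 to 79 (pluripotent cells) calls for control shRNA against untransduced, 1 to 4 and 3 to 7 for KBTBD8 against control shRNA, 24 to 64 and 9 to 55 for KBTBD8 shRNA against untransduced, 25 to 31, 37 to 42 and 40 to 64 for differentiation with KBTBD8 shRNA, control shRNA and no virus, 5 to 15 for control shRNA background by state and 0 to 5 for KBTBD8 effect by state. A KBTBD8 shRNA group left with 1 array is assumed to vary like the other groups. Of 839 results of named members with an array left out, 691 kept direction and side of the threshold, 122 lost the call, 6 gained one and 20 changed sign, 0 of those called.

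Values that changed sign were near 0 with 1 exception. With all 18 arrays SCARNA14 differed by 0.094 and SNORD60 by 0.091 in differentiation with KBTBD8 shRNA, where SNORD60 was called at −0.53 on 16 arrays. After quantile normalization SNORD60 gave 0.045 for untransduced differentiation and −0.17 for KBTBD8 shRNA against untransduced embryoid bodies. With 1 array left out SCARNA14 ran from −0.156 to 0.042 in differentiation with KBTBD8 shRNA and from −0.038 to 0.202 for KBTBD8 effect by state. SNORD12C ran from −0.070 to 0.331 in differentiation with KBTBD8 shRNA and from −0.070 to 0.643 in untransduced differentiation. SNORD60 ran from −0.12 to 0.23 in untransduced differentiation and from −0.077 to 0.105 for KBTBD8 shRNA against untransduced embryoid bodies. SNORD75 ran from −0.113 to 0.052 and −0.19 to 0.88 in differentiation with control shRNA and untransduced, from −0.91 to 0.16 for control shRNA background by state and from −0.137 to 0.0038 for KBTBD8 against control shRNA in embryoid bodies. The cause of these changes was not tested.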

Other observations

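The 76 probe sets that carry several symbols, at least 1 of them SNORD, SNORA or SCARNA, were fitted in a table of 21937 probe sets. Of the 63 past the filter, 30 rose and 2 fell with control shRNA against untransduced embryoid bodies (median 0.50), and 22 rose and 3 fell in pluripotent cells (median 0.51). Of all probe sets fitted there 21.6% rose and 16.1% fell in embryoid bodies, and 14.2% rose and 9.84% fell in pluripotent cells. Small nuclear, Y and vault RNAs, which share no symbol with the members, were lower with KBTBD8 shRNA in embryoid bodies, and the test of that effect between the states called 0 of 30 upward and 11 downward (median −0.51).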
